A study of Mus musculus with 6 samples.

Results

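Spib, Spi1, Irf4 and Irf8 are 4 transcription factor genes of B lineage cells, and they were followed in mouse pro-B cells transformed with vAbl, an oncogene that arrests such cells at an early stage, before and after deletion of Foxo1. The members were chosen by name with results of the same comparison in view: Spib for its higher values after tamoxifen, and the others as its closest relative and the partners both share. Their levels are therefore given as a description, with no test. All 4 had a probe set paired with 1 gene symbol, of 19937 such genes and 34760 probe sets on the array, and each had only 1 such probe set.

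All 6 samples were of genotype Foxo1f/f; ERCre and strain C57/BL6, so both copies of the forkhead factor gene Foxo1 were flanked by loxP sites and all cells carried ERCre, a recombinase tied to an oestrogen receptor domain. The 3 untreated samples received nothing, and the 3 tamoxifen samples received 1 µM tamoxifen, which activates the recombinase, for 2 days. The promoter that drives the recombinase, and whether the line is a single clone, are not given in the sources used here. No treated cells with intact Foxo1 were analysed here, so the drug and the deletion cannot be told apart. The labels do not say whether the replicates are separate cultures, so the spread between them, on which every p-value below rests, may be technical.

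Foxo1 had a mean intensity of 647 ± 149 in untreated and 134 ± 17.8 in tamoxifen samples (SD, n = 3). The values are intensities, the brightness of a probe set on a linear scale, and array medians lay between 100.9 and 109.1. Of 14 measured pro-B and B lineage markers, 12 were above the array median on all 6 arrays, as were 9823 of all 19937 genes. Among the 12 were Igll1 and Vpreb1, the surrogate light chain genes that define early B cell precursors. Rag1 and Kit, in the same list, were above the median on 0 of the 6 arrays. Of 12 myeloid markers 0 were above it on all 6 arrays, and of 9 T cell markers 1.

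PU.1, encoded by Spi1, and Spi-B, encoded by Spib, are Ets family factors of the SPI subfamily with closely related DNA-binding domains, and they share many sites and targets in B cells. IRF4 and IRF8 bind DNA weakly alone and are recruited by PU.1 or Spi-B to composite sites where an Ets core lies next to an interferon response half-site, such as those of immunoglobulin light chain enhancers. PU.1 level also matters for lineage choice, since high levels favour myeloid development, while in B cell precursors IRF4 and IRF8 act together in the step from cycling pre-B cells to light chain rearrangement.

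The window around the start site is shown for Spib, the member whose level differed, and for Irf4, the member whose window held a PU.1 box. Of the 4 members, 3 matched the RefSeq promoter table of GRCm38.p6 by symbol: Spib, Irf4 and Irf8, the last with 2 start sites. Each window runs from 250 bases before to 50 after the start site, 5′ to 3′ on the gene's own strand. Spib lies at chr7:44532022-44532321 on the minus strand and Irf4 at chr13:30748983-30749282 on the plus strand. Capitals mark the Ets core GGAA, or its reverse complement, and in Irf4 also the longer PU.1 and Spi-B box core GAGGAA.
Spib: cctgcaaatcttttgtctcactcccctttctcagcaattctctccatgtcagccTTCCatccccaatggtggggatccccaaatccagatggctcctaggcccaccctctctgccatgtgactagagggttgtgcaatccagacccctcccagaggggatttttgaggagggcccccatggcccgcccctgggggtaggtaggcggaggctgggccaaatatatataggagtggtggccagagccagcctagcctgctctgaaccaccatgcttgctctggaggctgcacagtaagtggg
Irf4: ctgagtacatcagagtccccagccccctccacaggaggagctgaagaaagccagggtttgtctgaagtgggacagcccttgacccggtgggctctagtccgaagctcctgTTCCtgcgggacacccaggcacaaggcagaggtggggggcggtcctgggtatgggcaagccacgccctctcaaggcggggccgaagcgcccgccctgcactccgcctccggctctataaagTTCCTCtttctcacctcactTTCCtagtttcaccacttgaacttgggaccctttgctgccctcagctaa

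Both strands were searched for 7 motifs: the FOXO site GTAAACA, the Ets core GGAA, the box core GAGGAA (which contains the Ets core), the composite Ets and IRF element GGAANNGAAA, the interferon response element GAAANNGAAA, the E box CANNTG and the TATA box TATAAA. The Spib window held 1 Ets core, first base at -196 on the opposite strand, 2 E boxes and none of the other 5 motifs. The Irf4 window held 3 Ets cores, of which that at -19 was part of a GAGGAA on the opposite strand, with 1 E box and 1 TATA box. The Irf8 windows held 2 Ets cores with 1 TATA box, and 3 Ets cores with 2 E boxes, and no match to the others. Over all 32851 windows of this length in the table, GTAAACA was found in 3.65%, GGAA in 96.0%, GAGGAA in 28.3%, GGAANNGAAA in 2.72%, GAAANNGAAA in 3.44%, CANNTG in 72.3% and TATAAA in 13.6%. These matches describe letters in a short window only, and no binding was measured here.

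Among the SPI genes, Spib was higher after tamoxifen, while the groups of Spi1 overlapped. Spib measured 171.8, 142.8 and 149.5 in the untreated and 442.8, 383.2 and 385.4 in the tamoxifen samples, listed here and below in the order of replicates 1, 2 and 3. The groups did not overlap, and all 6 values were above the median of their array. The means were 154.7 ± 15.2 and 403.8 ± 33.8 (SD, n = 3), a difference of 1.29 ± 0.08 (SE) on the log2(intensity + 16) scale on which all differences below are given. Fold values are taken from that scale too, 2.44-fold for Spib. The scale understates the change of dim genes, and for Spib the difference was 1.37 with a pseudocount of 1 in place of 16. Of 34760 probe sets, 8 had a larger rise, but Spib was chosen for its rise, so nothing is read from that rank. With 1 array left out the difference of Spib ran from 1.23 to 1.36.

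Of the 4 members, Spib was the 1 whose deposited intensities did not overlap between groups, against 8.51% of all probe sets, 4.25% with tamoxifen higher and 4.26% with tamoxifen lower. Spib was chosen on this contrast, so nothing is read from that count. For the genes described below that are not members, a call means a limma adjusted p under 0.05 over all probe sets. On the whole array 0.0575% of probe sets were called, 0.0374% upward and 0.0201% downward, and before adjustment 5.11% had a p under 0.05, 2.97% higher and 2.14% lower after tamoxifen. The calls numbered 20, 13 raised and 7 lowered, against 10 raised and 2 lowered with no further normalization.

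Spi1, which encodes PU.1, had a smaller difference between the groups. It measured 202.9, 186.3 and 184.8 in the untreated and 241.4, 201.2 and 205.2 in the tamoxifen samples. Tamoxifen sample 1 stood above the other 5, and tamoxifen sample 2 lay just under untreated sample 1, so the groups overlapped. The means were 191.3 ± 10.1 and 215.9 ± 22.1 (SD, n = 3), a difference of 0.15 ± 0.08 (SE). Of all probe sets 10.3% had a larger rise. Without tamoxifen sample 1 the difference was 0.08. Spic, which encodes Spi-C, the third SPI factor, known from splenic red pulp macrophages, was below the lower quartile on every array, with 30.5 ± 2.34 in untreated and 29.8 ± 1.51 in tamoxifen samples (SD, n = 3).

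Irf4 and Irf8, the lymphoid IRF partners, overlapped between the groups. Irf4, which also drives plasma cell differentiation, measured 533.9, 583.5 and 502.7 in the untreated and 432.3, 506.6 and 518.3 in the tamoxifen samples. Tamoxifen sample 1 was the lowest of all 6 and the other tamoxifen samples lay inside the untreated range. The means were 540.0 ± 40.7 and 485.7 ± 46.6 (SD, n = 3), a difference of -0.16 ± 0.11 (SE). Without tamoxifen sample 1 the difference was -0.04, so most of it rested on that array.

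Irf8, which acts in B cell precursors and in myeloid and dendritic cell development, measured 388.5, 468.2 and 391.2 in the untreated and 457.5, 414.4 and 475.7 in the tamoxifen samples. Untreated sample 2 was the second highest of the 6, above tamoxifen samples 1 and 2. The means were 415.9 ± 45.2 and 449.2 ± 31.5 (SD, n = 3), a difference of 0.09 ± 0.09 (SE). The difference was 0.03 without untreated sample 1, 0.14 without untreated sample 2 and 0.02 without tamoxifen sample 3. Across the members, tamoxifen sample 1 had the highest Spib and Spi1 values and the lowest Irf4 value, whereas Irf8 was highest in tamoxifen sample 3.

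**Figure D1:**
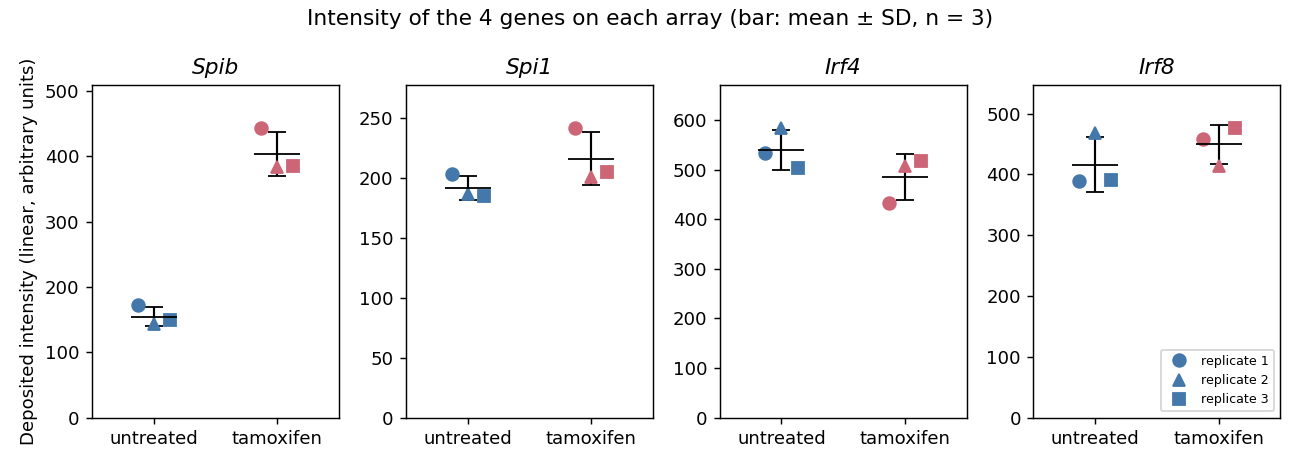
Deposited linear intensity of Spib, Spi1, Irf4 and Irf8 on each of the 6 arrays, untreated in blue and tamoxifen in red, with the replicate number as the marker shape and the group mean ± SD as bars. For Spib the 3 tamoxifen values lie between 383.2 and 442.8 and the 3 untreated values between 142.8 and 171.8, while the groups of the other genes overlap.

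None of the other measured IRF genes passed the test. Besides Irf4 and Irf8, 6 IRF genes were measured by a probe set with 1 symbol. Limma called 0 of the 6 in either direction, and none reached 0.05 before adjustment (0 of 6). Their differences ran from -0.07 to 0.20 with a median of 0.09, where the median over all probe sets was -0.01.

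Irf9, the DNA-binding subunit of the ISGF3 complex of interferon signalling, had the largest of these differences. It measured 203.4, 175.0 and 192.3 in the untreated and 246.1, 209.3 and 215.8 in the tamoxifen samples, so its groups did not overlap. The difference was 0.20 ± 0.08 (SE), with a limma adjusted p = 0.982. Irf1, an interferon-induced activator (0.17), and Irf5, which acts downstream of Toll-like receptors (0.13), had overlapping groups. Irf2, which competes with IRF1 at shared sites (0.05), Irf3, a sensor-activated inducer of type I interferon (-0.07), and Irf7, its inducible counterpart (-0.01), were within 1 standard error of 0.

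The AP-1 and BATF proteins, which offer IRF4 and IRF8 another kind of composite site, had no member past the test. Limma called 0 of 10 measured genes, and before adjustment 0 were under 0.05. The median difference was -0.02. Jund (0.13) and Batf3 (-0.13) had the largest differences, and Batf, the BATF protein best known in B and T cells, measured 332.9 ± 29.5 in untreated and 332.4 ± 27.6 in tamoxifen samples (SD, n = 3).

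**Figure D2:**
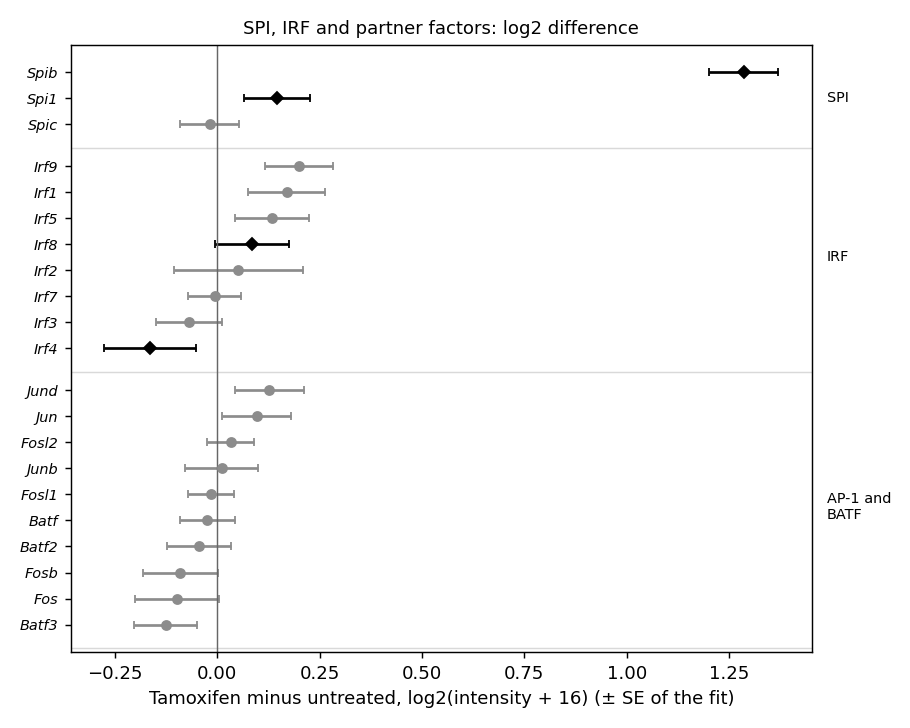
Tamoxifen minus untreated difference (log2(intensity + 16), ± SE of the fit, 3 against 3 arrays) of the measured SPI, IRF, AP-1 and BATF genes. Black diamonds are the 4 described genes, shown without a test, and grey circles are genes that did not pass limma. Spib lies at 1.29 and every other gene between -0.16 and 0.20.

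The genes most like each member over the 6 arrays were ranked by Pearson's r of normalized log2 values among 10141 genes at or above the median brightness. For Spib these were Tmem9b (r = 0.9975, difference 0.18), Cyth4 (r = 0.9966, difference 0.44) and Pld4 (r = 0.9962, difference 1.38), and 88 genes had r of 0.95 or more. Because the groups of Spib did not overlap, any gene that differs between the groups with little spread ranks high, whatever the size of its difference. For Spi1 they were Pde8a, Kifbp and Dnajb13 (r from 0.9906 to 0.9917), with 79 genes at 0.95 or more. For Irf4 they were Mbnl3, Zfp488 and Sin3a (r from 0.9842 to 0.9960), with 33 such genes. Irf8 had the fewest, 4, led by Zfp991, Ppcdc and Tgfbr2 (r from 0.9622 to 0.9807). None of the 3 genes named for one member was named for another, and with so few arrays such values are a description only.

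Of 21 measured genes that PU.1 and Spi-B are known to bind or regulate in B cells, limma called 1 raised and 0 lowered. Over all probe sets 0.0374% were called raised and 0.0201% lowered. The list was drawn up with earlier results known, so nothing is read from its counts. At an unadjusted p under 0.05 there were 5 of 21 higher and 2 of 21 lower, against 2.97% and 2.14% of all probe sets. The median difference was 0.16, and 16 of 21 were positive, where 46.1% of all probe sets were.

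The member that rose was Tnfrsf13c, the receptor for the B cell survival factor BAFF. It measured 334.1, 354.1 and 335.6 in the untreated and 716.3, 652.3 and 730.8 in the tamoxifen samples. Every tamoxifen value was well above every untreated value, and the spread within each group was small. The difference was 0.98 ± 0.07 (SE), 1.98-fold, with a limma adjusted p = 0.0223. With any 1 array left out limma did not call it, with differences from 0.93 to 1.01 and adjusted p from 0.0994 to 0.146.

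The next largest differences in the list belonged to Cd22 and Cd79b. Cd22, an inhibitory co-receptor of the B cell receptor, had a difference of 0.57 ± 0.43 (SE) that was within 2 standard errors of 0, with a limma adjusted p = 0.999. Cd22 measured 180.4, 479.6 and 431.9 in the untreated and 333.2, 647.3 and 638.5 in the tamoxifen samples. Replicate 1 was the lowest in both groups. Cd79b, a signalling chain of the receptor, measured 1578, 1482 and 1327 in the untreated and 2112, 2033 and 2174 in the tamoxifen samples, a difference of 0.52 ± 0.07 (SE) with a limma adjusted p = 0.134. Where genes rather than probe sets were tested, 3 of the list were called: Tnfrsf13c, Cd79b (adjusted p = 0.0273) and, lower after tamoxifen, Ebf1 (adjusted p = 0.0366), a factor that specifies the B lineage. The list thus held genes with differences in both directions. Blnk and Btk, which carry the signal of the pre-B cell receptor, had differences of 0.03 ± 0.11 and 0.18 ± 0.09 (SE).

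Of 11 measured IRF4 and IRF8 targets, limma called 0, and before adjustment 3 were under 0.05, all higher after tamoxifen, against 2.97% of all probe sets. The 3 were Mdm2, Igll1 and Vpreb1. This list was also drawn up with earlier results known, so nothing is read from its counts. It also does not separate genes these factors raise from genes they lower. The median difference was 0.15, and 9 of 11 were positive, against 46.1% of all probe sets. Cxcr4, a chemokine receptor that holds precursors in bone marrow niches, had a difference of 0.37 ± 0.19 (SE), and Mdm2, which restrains p53, 0.28 ± 0.06 (SE) with a limma adjusted p = 0.377. Ikzf3, which encodes Aiolos and stands in this list and in that of PU.1 and Spi-B, had 0.15 ± 0.07 (SE).

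Interferon-stimulated genes, which the wider IRF family controls, had no member past the test. Limma called 0 of 12, before adjustment 1 was under 0.05, and the median difference was -0.01. That gene was Ifit2, an antiviral protein, with a difference of -0.33 ± 0.09 (SE) and a limma adjusted p = 0.671. Stat2, a partner of IRF9, had 0.17 ± 0.14 (SE).

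**Figure D3:**
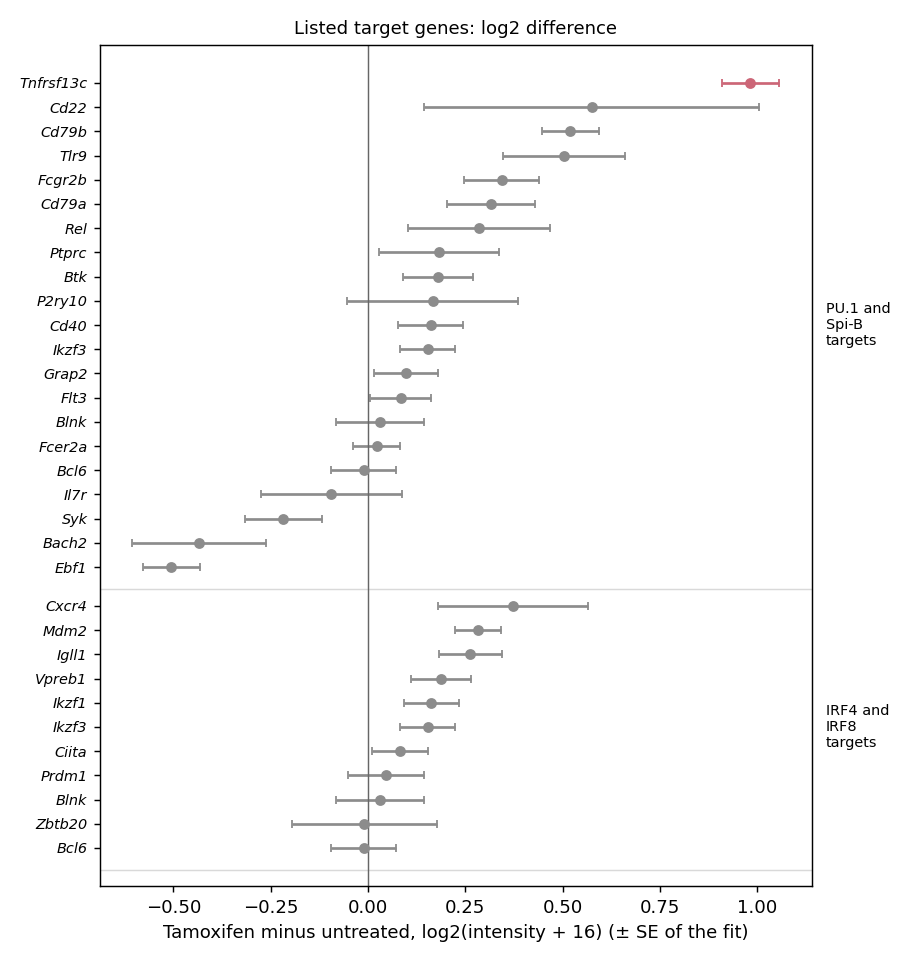
Tamoxifen minus untreated difference (log2(intensity + 16), ± SE of the fit, 3 against 3 arrays) of the measured genes in the PU.1 and Spi-B list and the IRF4 and IRF8 list; genes in both lists appear under each. Red marks Tnfrsf13c, at 0.98 the gene that passed limma, and grey marks the rest, from -0.51 for Ebf1 to 0.57 for Cd22.

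Spib is also a gene of plasmacytoid dendritic cells, a cell type that shares several regulators with B cells. Of 14 measured markers of that type limma called 2, both raised, against 0.0374% of all probe sets raised. At an unadjusted p under 0.05 there were 4 of 14 higher and 0 lower, against 2.97% and 2.14% of all probe sets. Of the 4, Tlr9 was also counted in the PU.1 and Spi-B list. This list, too, was drawn up with earlier results known, so nothing is read from these counts. In bulk RNA more (or fewer) cells of a type and more (or less) RNA per cell cannot be told apart. Pld4, an endolysosomal nuclease, measured 136.6, 118.8 and 122.8 in the untreated and 364.8, 332.1 and 368.0 in the tamoxifen samples, a difference of 1.38 ± 0.08 (SE) with a limma adjusted p = 0.012. Bcl11a, a factor of early lymphoid and plasmacytoid cells, measured 515.9, 479.6 and 408.8 in the untreated and 944.3, 783.6 and 853.5 in the tamoxifen samples, a difference of 0.84 ± 0.08 (SE) with a limma adjusted p = 0.0392. Both are also expressed in B lineage cells. With 1 array left out Pld4 passed only without untreated sample 1 (adjusted p from 0.0276 to 0.114) and Bcl11a in none of the 6 fits (0.105 to 0.263).

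The other 12 measured plasmacytoid markers did not pass. Over all 14 the median difference was 0.04 with 9 positive, where 46.1% of all probe sets were positive. The summed intensity ran from 2527 to 2693 in untreated and from 3272 to 3406 in tamoxifen samples. Without Pld4 and Bcl11a, left out after their values were seen, the median was 0.03 with 7 of 12 positive, and the sums ran from 1995 to 2040 and from 2039 to 2184, so those 2 genes carried most of the rise of the sum. Tlr9, a sensor of DNA (0.50), and Ly6d, a surface marker of lymphoid precursors (0.42), had the next largest differences. Their groups did not overlap, with tamoxifen higher, as for 4.25% of all probe sets. The cell type's defining surface marker Siglech measured 105.9 ± 2.02 and 108.1 ± 6.09 (SD, n = 3), and Tcf4, its main regulator, 386.5 ± 30.9 and 363.8 ± 10.2 (SD, n = 3). The groups of Tlr7 did not overlap either, with tamoxifen higher, but Tlr7 was below the lower quartile on every array.

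Markers of the other cell types in which these factors act had no member past the test. Myeloid markers, many of them controlled by PU.1 in macrophages and neutrophils, had 0 of 12 called and 0 at an unadjusted p under 0.05, a median of 0.01 and summed intensities of 805.3 to 899.5 in untreated and 821.1 to 871.3 in tamoxifen samples. The largest differences were in Lyz2 (-0.19), a lysozyme, and Fcgr1 (0.14), an Fc receptor. Plasma cell markers, relevant to IRF4, had 0 of 8 called and 0 at an unadjusted p under 0.05, a median of 0.05 and sums of 1457 to 1877 against 1592 to 1908, with Xbp1 at 0.17 and Sdc1 at -0.16. T cell markers had 0 of 9 called and 0 at an unadjusted p under 0.05, a median of 0.00 and sums of 613.0 to 763.9 against 633.4 to 735.1, with Thy1 at -0.12 and Cd8a at -0.11. Of the 14 pro-B and B lineage markers limma called 0, with a median of 0.06. At an unadjusted p under 0.05 there were 5 of 14 higher and 2 of 14 lower, against 2.97% and 2.14% of all probe sets. The lists share genes, so these counts are not separate results. Of these genes, Cd79a, Cd79b and Ebf1 were also counted in the PU.1 and Spi-B list. Igll1 and Vpreb1 were also counted in the IRF4 and IRF8 list. The pro-B list, too, was drawn up with earlier results known, so nothing is read from its counts. Dntt, the terminal transferase of early precursors, had the largest difference in that list at -1.26 ± 0.25 (SE), with a limma adjusted p = 0.365, and Cd79b, described above, the next largest at 0.52.

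**Figure D4:**
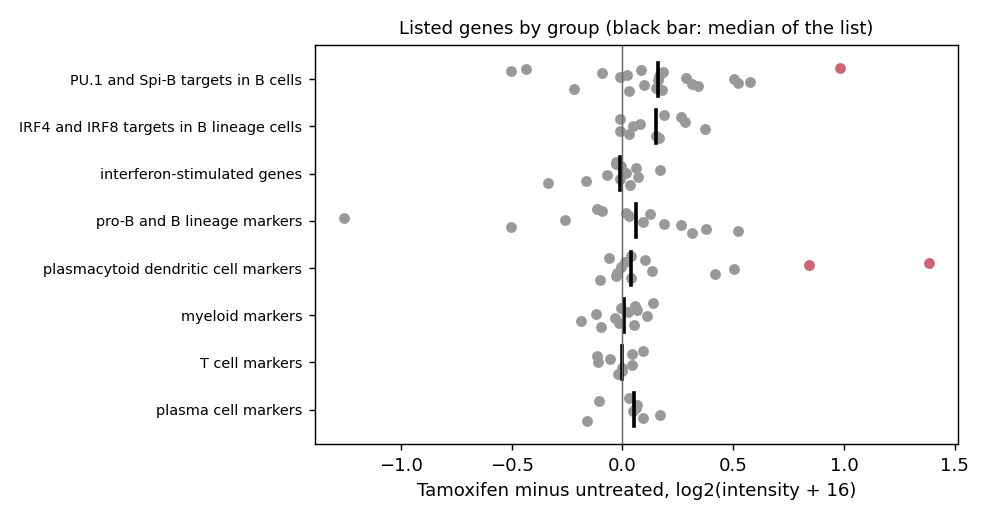
Tamoxifen minus untreated difference (log2(intensity + 16)) of each measured gene, 1 row of points for each of the 8 lists of targets, interferon-stimulated genes and markers, with a black bar at the list's median and red for genes that passed limma. The medians of these 8 lists lie between -0.01 and 0.16, and the red points are Tnfrsf13c at 0.98, Bcl11a at 0.84 and Pld4 at 1.38.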

How the data were processed

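Total RNA of 6 samples was converted to biotin-labelled cRNA and hybridised to gene-level arrays, per the labels' protocols. The authors deposited linear intensities, 1 for each probe set on each array. Their background correction, summarisation and normalization are not given in the sources used here. Here log2(intensity + 16) was quantile normalised, and 3 tamoxifen arrays were compared with 3 untreated arrays in limma 3.58.1 (R 4.3.3, lmFit then eBayes, two-sided). P-values of the 34760 probe sets were adjusted together by Benjamini-Hochberg, with 0.05 as the threshold. The fit was tested on simulated data.

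Names came from a platform table: 21640 probe sets had 1 symbol, 1321 several, and 11799 were unnamed. A gene was represented by its brightest probe set with 1 symbol. The members, gene lists and naming rule were chosen with earlier results of these data known. The rule named the members, Foxo1, all SPI and IRF genes, called members of each list and its next 2 by size of difference, and the 3 genes most like each member in pattern. Outside it, Batf, Blnk, Btk, Cd79a, Ebf1, Igll1, Ikzf3, Kit, Rag1, Siglech, Tcf4, Tlr7 and Vpreb1 were named after their values were seen.

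The alternatives tried were a block for the replicate number, leaving out each array, cyclic loess, a common median, no further normalization, only brighter probe sets, pseudocounts of 1 and 64, an intensity trend with robust eBayes, and averaged probe sets. Figures were drawn with matplotlib 3.10.9.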

Additional observations from a re-analysis of the deposited data

How the results depend on the processing

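The differences of Spib, Spi1 and Irf8 were positive and that of Irf4 negative under all 15 alternatives, and those of Spib ran from 1.085, with a pseudocount of 64, to 1.37. Limma called 20 probe sets (13 raised, 7 lowered). It called 0 under a replicate block (0 raised, 0 lowered, with 2525 at an unadjusted p under 0.05), 3 at a common median (2 and 1), 12 with no further normalization (10 and 2), 11 with a pseudocount of 1 (9 and 2), 12 with trend and robust fitting (9 and 3), 46 among brighter probe sets (30 and 16) and 73 with averaged probe sets (42 and 31). With 1 array left out it called 0 to 6 (0 to 4 raised, 0 to 2 lowered): 6 without untreated 1, 2 without tamoxifen 1 and 0 otherwise, with at least 1360 at an unadjusted p under 0.05. Of PU.1 and Spi-B targets 1 was called, but 0 under the replicate block, at a common median or with any array left out, and 3 with averaged probe sets. Of plasmacytoid markers 2 were called, but 0 under the replicate block, 0 to 1 with an array left out, and 1 at a common median, with no further normalization, with a pseudocount of 1 or with trend and robust fitting. Foxo1 had a difference of -2.13 with a limma adjusted p = 0.0178. It passed in 8 of the 15 alternatives, and in 1 of the 6 with an array left out. Averaged probe sets gave 2 pro-B markers. The cause was not tested. Deviations of same-numbered samples correlated at 0.256, 0.0547 and 0.302. Those of differently numbered samples correlated at 0.103, -0.42, -0.259, 0.248, -0.0769 and -0.188. These few values do not settle whether the numbers pair the samples. The labels state no pairing, so the main fit used none. The number of arrays limits precision.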
